A study of Rattus norvegicus with 60 samples.

Results

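The miR described here is rno-miR-21, the guide strand of the rat mir-21 hairpin and 1 of the 350 rat miRs on the array. It was found by its name in the scanner files of all 60 arrays, and its passenger strand, rno-miR-21*, was kept apart. It was picked because earlier results of these arrays had shown a difference between ischemia/reperfusion (IR) injured and sham control retinas that was unequal at 24 h and 7d. The differences between IR and sham control are therefore given as a description, with no test.

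MiRs are short RNAs that guide the silencing complex to messenger RNAs with a match to the seed, a stretch near the 5′ end of the miR. miR-21 is one of the best known injury-responsive miRs, and its transcription is driven by STAT3 and AP-1 downstream of cytokines and stress signals. Among its established targets is Pdcd4, a promoter of cell death. In the nervous system it is known to be raised in reactive astrocytes after injury.

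All rats were male Long Evan's hooded rats, with no genetic change named in the labels, and their age is not given in the sources used here. In the IR groups, 1 eye was cannulated under anesthesia and the pressure in it was held at 110 mmHg for 60 min, followed by reperfusion. The 5 time points were 0 h and 2 h (early), 24 h and 48 h, and 7d. The sham control rats had the same surgery without the rise in pressure and were killed at the same times. Each of the 10 groups held 6 rats, with 1 array per rat and RNA of the whole retina. Whole retina mixes neurons, glia, vessels and any invading cells, so more cells of a type and more RNA per cell cannot be told apart.

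The sequences of both arms of the hairpin were taken from RefSeq (build GRCr8) to show what the probes measured. In the first pair, capitals mark the seed, bases 2 to 8 from the 5′ end.
rno-miR-21-5p: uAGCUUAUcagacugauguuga
rno-miR-21-3p: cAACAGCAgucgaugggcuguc
The 5p arm is the miR that the array calls rno-miR-21 and lies at chr10:71902653-71902674 on the minus strand. The 3p arm is the one called rno-miR-21* and lies at chr10:71902615-71902636 on the same strand. None of the other mature miRs in the RefSeq table, which lists 724, had the same seed as the 5p arm, so no seed relative had to be kept apart from it. Of the genes listed by RefSeq, 0 overlapped the hairpin, and the nearest, Vmp1, which codes for an autophagy protein, lay 532 bases away.

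The array carried 2 probes for rno-miR-21, each printed 10 times. By the array annotation (rn4) they spanned 20 bases at chr10:74864553-74864572 and 19 bases at chr10:74864553-74864571. Both shared the end of the span that corresponds to the 3′ end of the miR, and they are shown because they differ by 1 base. Capitals mark the bases spanned, from base 3 or base 4 to base 22.
A_26_P00001210: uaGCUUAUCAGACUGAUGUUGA
A_26_P00001211: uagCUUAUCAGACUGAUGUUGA
The 4 probes of rno-miR-21* spanned 12 to 15 bases, starting at position 74864515, and were printed 5 times each. The distance of 38 bases between the spans of the 2 arms was the same as that between the arms in RefSeq.

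The value used is the total signal, the summed fluorescence of a miR over its probes after background subtraction. To put the arrays on 1 scale, it was divided by the 75th percentile of the 57 miRs that every array detected, and it is given as log2 unless stated. Between 59 and 232 miRs were detected per array. Before scaling, the IR arrays were dimmer than the sham control arrays at 0 h, 24 h, 48 h and 7d. At 24 h the log2 75th percentile was 8.27 ± 0.57 on the IR arrays against 10.42 ± 0.35 on the sham control arrays, and at 7d it was 8.16 ± 0.47 against 10.74 ± 0.24 (SD, n = 6). The retinal origin was borne out by miR-182, miR-183 and miR-96 of photoreceptors and miR-124 and miR-9 of neurons, which were detected on all 60 arrays.

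rno-miR-21 was detected on all 60 arrays. Its level was similar in 4 groups, sham control and IR at 0 h and at 2 h. It was far higher in IR at 24 h and 48 h, and intermediate in IR at 7d. In each of these later IR groups, every array lay above every sham control array of the same time point, as was so at 24 h for 17%, at 48 h for 6.29% and at 7d for 15.1% of the tested miRs.

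At 0 h, the end of ischemia, the lowest, median and highest levels were 7.97, 8.07 and 8.20 in IR and 7.50, 8.13 and 8.20 in sham control. The groups overlapped and their means were 8.08 ± 0.09 and 8.04 ± 0.27 (SD, n = 6). The difference, IR minus sham control, was 0.04 with a standard error of 0.16. The fit pooled the variance of the miR over the 10 groups, so this standard error is the same at all 5 time points. One sham control array, replicate 1, lay at 7.50, apart from the other 5 at 8.11 to 8.20.

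At 2 h the levels ran from 7.96 over a median of 8.10 to 8.19 in IR. In sham control they ran from 7.96 over 8.09 to 8.19. Both means were 8.09, with an SD of 0.08 in IR and 0.09 in sham control (n = 6), and the arrays of the 2 groups were interleaved.

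At 24 h the levels ran from 10.53 over a median of 10.70 to 10.995 in IR. In sham control they ran from 8.33 over 8.41 to 8.76. All 6 IR arrays stood above all sham control arrays, with a gap of 1.77 between the nearest arrays of the 2 groups. The mean was 10.71 ± 0.17 against 8.50 ± 0.19 (SD, n = 6), a difference of 2.21 with a standard error of 0.16, or 4.63-fold. The call rule used here asked limma for a change of 2-fold or more with an adjusted p no higher than 0.05. It was met by 18.2% of the 159 miRs tested at 24 h. That share is given as background only. No call is given for rno-miR-21, since it had been chosen on this contrast.

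At 48 h the levels ran from 9.02 over a median of 10.65 to 11.18 in IR. In sham control they ran from 8.03 over 8.26 to 8.63. The groups did not overlap, but the IR group was far more spread, at 10.48 ± 0.77 against 8.27 ± 0.21 (SD, n = 6). The difference was 2.20, or 4.61-fold, at a time point where 13.8% of the tested miRs met the call rule. The standard error of the difference, 0.16, was pooled over the 10 groups and does not show the wider spread of the IR arrays at 48 h. One IR array, replicate 5, lay at 9.02, below the 10.32 to 11.18 of the other 5. This array was also the brightest of its group before scaling (log2 75th percentile 10.24, against 7.84 to 9.93) and detected the most miRs (171, against a median of 118 in the group). Without it the IR mean was 10.77 ± 0.34 (SD, n = 5) and the difference 2.49.

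At 7d the levels ran from 9.43 over a median of 9.59 to 9.78 in IR. In sham control they ran from 8.25 over 8.38 to 8.44. The groups stood apart by 0.99 at their nearest arrays. The means were 9.59 ± 0.13 and 8.36 ± 0.09 (SD, n = 6), a difference of 1.23 with a standard error of 0.16, or 2.35-fold. As background, 18.2% of the tested miRs met the call rule at this time point. On the log2 scale, the difference at 7d was 55.7% of that at 24 h.

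**Figure D1:**
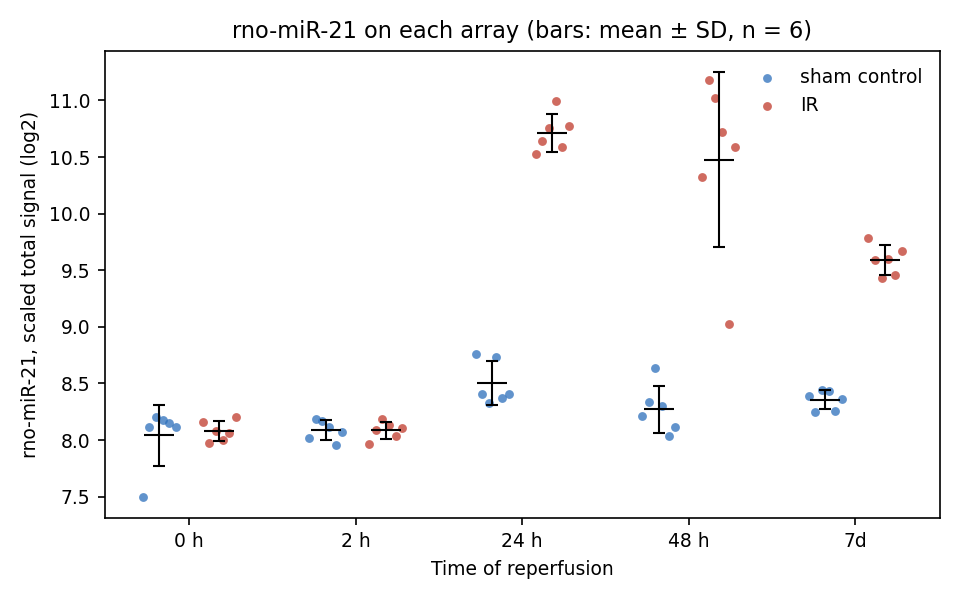
Scaled total signal of rno-miR-21 (log2) on each of the 60 arrays against the time of reperfusion, with red points for IR, blue points for sham control and black bars for the mean ± SD (n = 6). The IR arrays span 10.53 to 10.995 at 24 h. They span 9.02 to 11.18 at 48 h and 9.43 to 9.78 at 7d, above all sham control arrays of the same time point.

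Ordered by their means, the groups ran from sham control 0 h, IR 0 h, IR 2 h and sham control 2 h (8.04 to 8.09) over sham control 48 h (8.27), 7d (8.36) and 24 h (8.50) to IR 7d (9.59), IR 48 h (10.48) and IR 24 h (10.71). The steps from sham control 24 h to IR 7d (1.09) and from IR 7d to IR 48 h (0.89) exceeded the larger SD of the 2 neighbors. All other neighbors in this order, IR 48 h and IR 24 h included, differed by less than that SD. Within the IR groups, the mean at 24 h lay 2.63 above that at 2 h, a 6.18-fold step. The mean at 7d lay below that at 24 h, with a log2 difference of -1.13, and the highest IR array at 7d (9.78) was below the lowest at 24 h (10.53).

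The sham control groups were also compared among themselves. The arrays at 24 h and 7d had entered the differences on which the miR was chosen, so their values are given with no test. rno-miR-21 was higher in sham control at 24 h than at 0 h by 0.46 (standard error 0.16) and at 7d by 0.31 (standard error 0.16). All 6 arrays at each of these times lay above all 6 at 0 h, which held for 2.52% of the tested miRs at 24 h and for 3.14% at 7d. Without the low 0 h array, the differences were 0.35 and 0.20.

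The other 2 sham control comparisons were tested, and the smallest p that an exact two-sided permutation test of 6 against 6 arrays can give is 0.00216. At 48 h the level lay 0.23 above that at 0 h, with 4 of 6 arrays above all 0 h arrays (exact permutation p = 0.113, limma adjusted p = 0.559), or 0.12 above without the low 0 h array (exact permutation p = 0.225). At 2 h the difference was 0.04 (exact permutation p = 0.918, limma adjusted p = 0.995), and -0.06 without the low 0 h array. Over all miRs, limma called 0 of 159 (0%) in each of the 4 comparisons with 0 h. An unadjusted p under 0.05 was reached by 1 miR at 2 h, 25 at 24 h, 25 at 48 h and 35 at 7d.

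The size of the IR difference rested on the scaling between arrays, so the signals before scaling are given as well. At 24 h the unscaled total signal of rno-miR-21 was 359 to 829.1 units in IR, with a median of 705. In sham control it was 415 to 876 units, with a median of 643. The 2 groups overlapped before scaling, and the log2 difference was 0.06. The other 56 miRs detected on all arrays had a median log2 difference of -2.16 on the same unscaled arrays.

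At 48 h the unscaled signal was 434 to 2782 units in IR, with a median of 1108, and 342 to 818 in sham control, with a median of 528. This was a log2 difference of 1.01, beside a median of -1.29 for the other 56 miRs. At 7d the direction was turned, with 147 to 403 units in IR (median 302) and 529 to 917 in sham control (median 683). Every IR array then lay below every sham control array, a log2 difference of -1.35 beside a median of -2.69 for the other 56 miRs. At 0 h the unscaled difference was -1.02, equal to the median of the other miRs (-1.02), and at 2 h they were 0.04 and 0.03. Relative to the median of the other 56 miRs, rno-miR-21 stood at 2.22, 2.30 and 1.34 at 24 h, 48 h and 7d, at -0.00 at 0 h and at 0.00 at 2 h. What made the IR arrays dimmer was not tested.

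**Figure D2:**
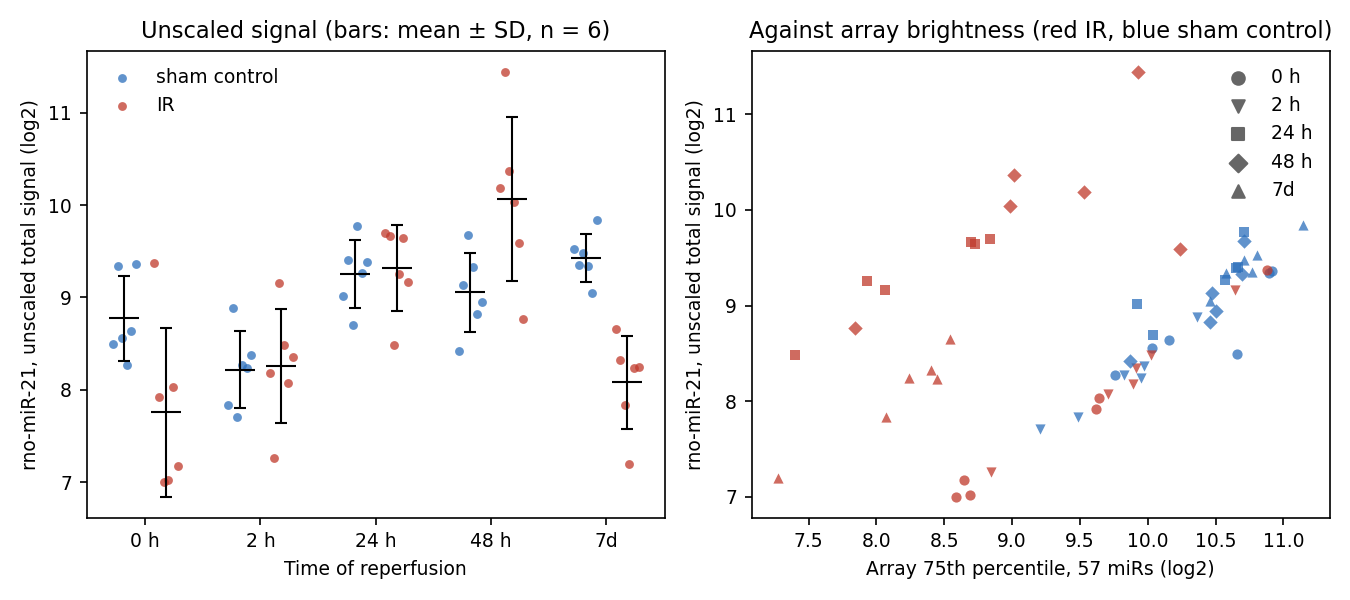
Left, total signal of rno-miR-21 before scaling (log2) on each array against time, with the mean ± SD (n = 6). Right, the same values against the log2 75th percentile of the array, with the time points as symbols. The IR arrays of 24 h, 48 h and 7d are shifted to the left of the line formed by the other arrays, and at 24 h the unscaled signals of the 2 groups overlap (359 to 829.1 and 415 to 876 units on the linear scale).

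A ratio of 2 miRs on the same array needs no scaling. The log2 ratio of rno-miR-21 to each of the other 56 miRs was therefore compared between IR and sham control, a setting added after the data were seen. At 24 h the ratio was higher in IR for all 56, without overlap of arrays for 53, with differences from 0.45 against rno-miR-328 to 2.73 against rno-miR-129*. At 48 h it was higher for all 56, without overlap for 47, with differences from 0.27 to 2.91. At 7d it was higher for 55 and without overlap for 51, and the exception was the ratio to rno-miR-328 with -0.61. At 0 h it was higher for 26 and at 2 h for 28 of the 56, and at these 2 times 0 ratios were higher without overlap, while 3 at 2 h were lower without overlap. These ratios show unequal change within an array and give no absolute level.

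Other scalings kept the IR signal higher at 24 h, 48 h and 7d, at unequal sizes. The difference at 24 h was 2.05 with quantile normalization, 1.90 with the 75th percentile over all 350 miRs and 1.59 with normexp background correction. It was 1.41 when each array was scaled to 4 control features of the array named hur, a setting added after the data were seen. At 7d these 4 settings gave 1.27, 1.03, 1.09 and 0.34, and at 48 h 2.26, 2.05, 1.53 and 2.00. Among the settings run, the sign at 7d turned only without normalization between arrays.

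**Figure D3:**
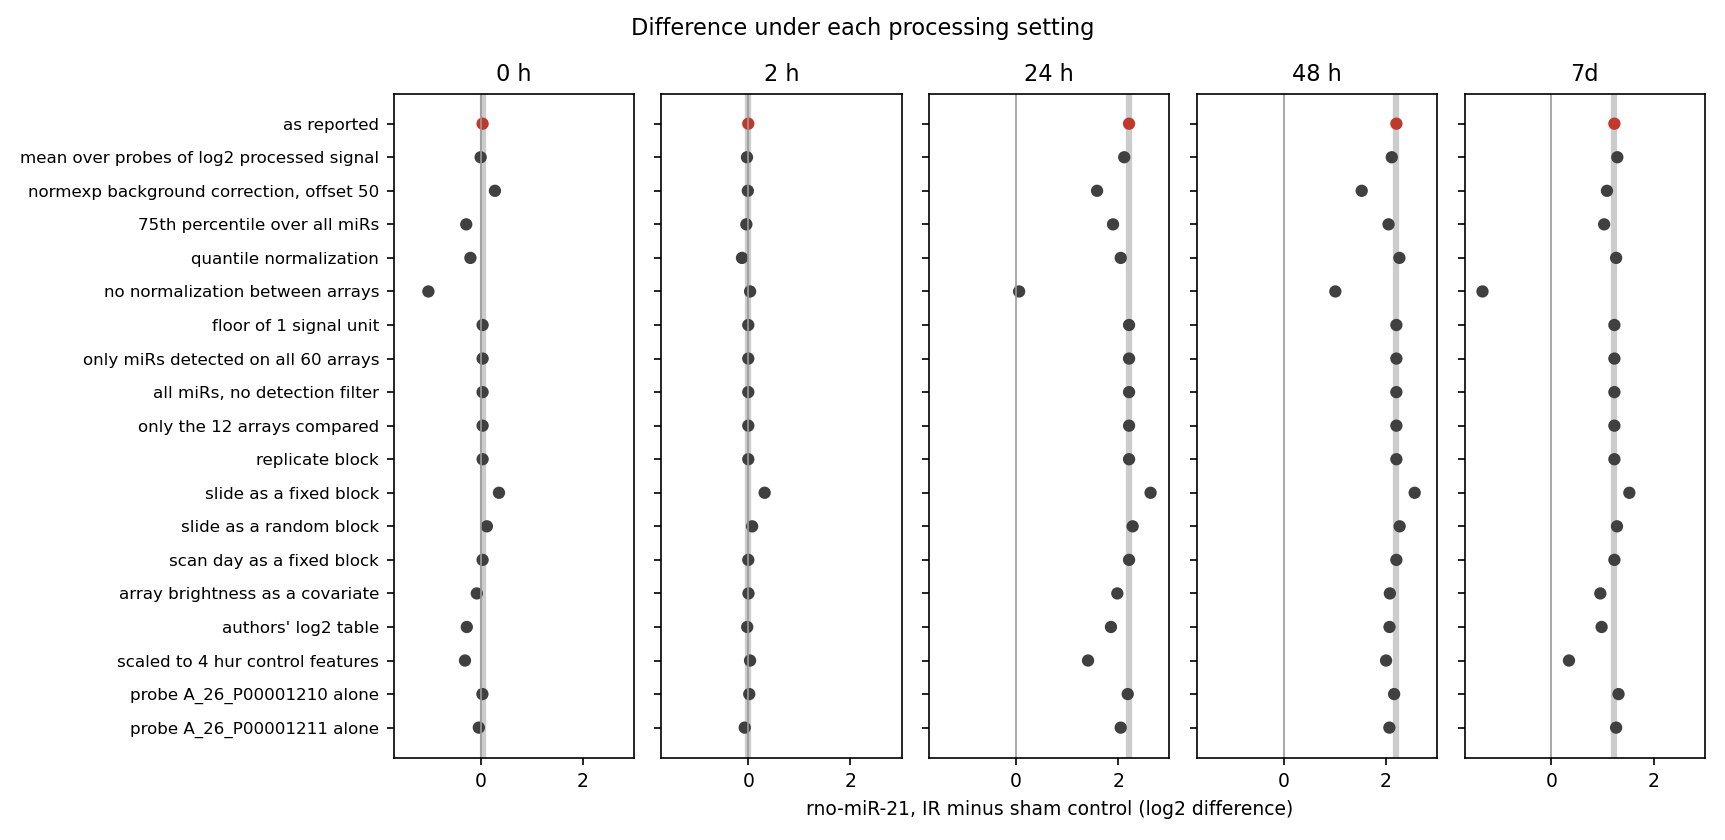
Difference of rno-miR-21 in log2 signal, IR minus sham control, in 5 panels from 0 h to 7d, under each setting named on the left. Red points are the values as reported, repeated as gray bands. Without normalization between arrays the point is at 0.06 for 24 h, at 1.01 for 48 h and at -1.35 for 7d.

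The 2 probes showed the same course. The longer probe had differences of 2.19, 2.16 and 1.31 at 24 h, 48 h and 7d, and the shorter one 2.05, 2.07 and 1.27. For both, all 6 IR arrays lay above all sham control arrays at these 3 times. At 0 h and 2 h the differences of both probes lay between -0.07 and 0.04. The repeat spots of a probe on 1 array varied by a median coefficient of variation of 4.78% for the longer and 7.94% for the shorter probe, and no spot of either was saturated. All 600 spots of the longer probe were well above background, as were 90.2% of those of the shorter.

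The arrays were scanned on 3 days, each with IR and sham control arrays of every time point. Within the 3 scans, the difference was 2.00, 2.30 and 2.37 at 24 h, 2.48, 2.40 and 1.73 at 48 h and 1.37, 1.07 and 1.25 at 7d. Within each scan there were 1 to 3 arrays per group, and the lowest of these values, that of scan 3 at 48 h, included the low IR array. At 0 h the values were 0.13, -0.13 and 0.09, and at 2 h -0.07, 0.02 and 0.06. The slides gave no such check, because 0 of the 9 slides held both groups of a time point. Only 2 of the 9 held both treatments, so slide and treatment can hardly be told apart.

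**Figure D4:**
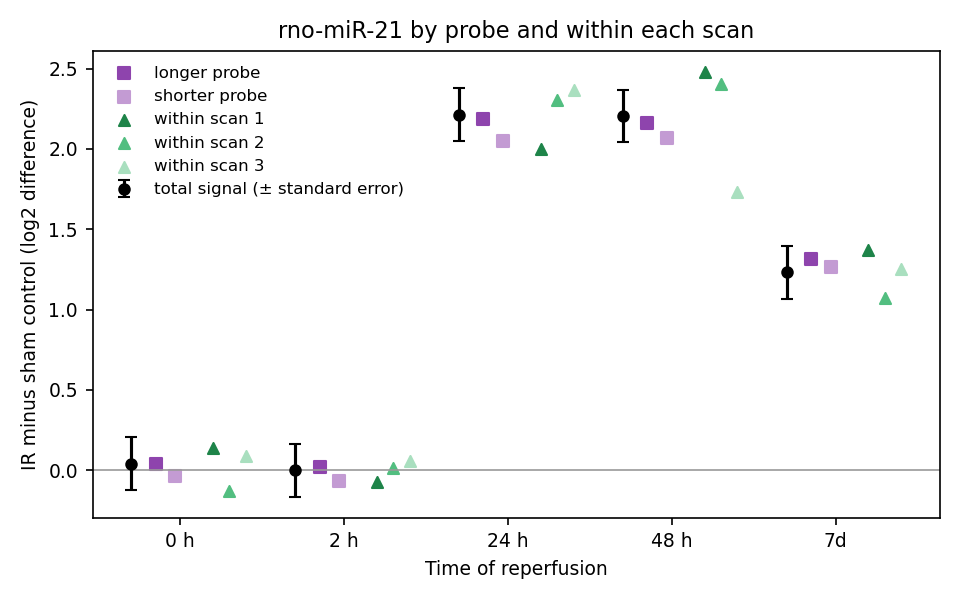
Difference of rno-miR-21 in log2 signal, IR minus sham control, against time: total signal with its standard error (black), each probe alone (purple squares) and the arrays of each scan alone (green triangles). All values at 24 h, 48 h and 7d lie above 1, and those at 0 h and 2 h lie between -0.13 and 0.13.

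The passenger strand rno-miR-21* was detected on 0 of the 60 arrays. Its total signal before scaling did not exceed 2.90 units on any array, against 128 units for the lowest array of rno-miR-21. No difference of rno-miR-21* was tested, and no ratio of the 2 strands is given. Its probes covered 12 to 15 bases of the strand, and a level below the detection limit of these probes would not have been seen.

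Few miRs had larger differences. At 24 h, 76 miRs were detected on all 12 arrays, and rno-miR-21 ranked 4 among them, after rno-miR-207 (2.64), rno-miR-346 (2.37) and rno-miR-539 (2.28). At 48 h it ranked 1 of 93, just ahead of rno-miR-539 (2.19), but with normexp background correction rno-miR-539 (1.68) lay above rno-miR-21 (1.53). At 7d it ranked 4 of 59, after rno-miR-207 (2.56), rno-miR-346 (2.29) and rno-miR-328 (1.84). At 0 h and 2 h it ranked 45 of 92 and 51 of 96, where rno-miR-672 led with 1.71 and 1.74, and where rno-miR-207 (1.55) and rno-miR-466b (1.52) at 0 h and rno-miR-466b (1.26) and rno-miR-181d (0.63) at 2 h followed. Without normalization between arrays, the 24 h differences were 0.49 for rno-miR-207, 0.21 for rno-miR-346 and 0.13 for rno-miR-539. Those at 7d were -0.02 for rno-miR-207, -0.29 for rno-miR-346 and -0.74 for rno-miR-328.

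The pattern most like that of rno-miR-21 over the 10 group means was that of rno-miR-20a, a member of the proliferation-linked miR-17 to miR-92 cluster. Pearson's r was 0.93 and Spearman's rho 0.52, over the 56 other miRs detected on all arrays. Its differences were 0.29 at 0 h, 0.41 at 2 h, 1.21 at 24 h, 1.34 at 48 h and 0.90 at 7d. All 6 of its IR arrays lay above all sham control arrays at 24 h, 48 h and 7d, but also at 0 h (as for 4.4% of the tested miRs), where those of rno-miR-21 overlapped. The size and sign depended on the scaling. The difference was 0.40 at 24 h and 0.0093 at 7d when scaled to the hur controls, -0.04 at 0 h with the percentile over all miRs, and -0.94 at 24 h and -1.68 at 7d without normalization between arrays. Next followed rno-miR-92a (r = 0.78, rho = 0.39), rno-miR-466b (0.72 and 0.49), rno-miR-29a (0.696 and 0.41) and rno-miR-672 (0.66 and 0.48). The sequence of rno-miR-92a lies on chromosome 15, as does that of rno-miR-20a, and also on chromosome X. Its signal therefore cannot be assigned to the cluster of rno-miR-20a.

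The least like was rno-miR-23b (r = -0.97, rho = -0.73), with differences of -0.22, -0.16 and -0.12 at 24 h, 48 h and 7d. These differences were positive with normexp background correction (0.24, 0.20 and 0.42). The next lowest were rno-miR-30a (r = -0.86, rho = -0.697) and rno-miR-181a (r = -0.86, rho = -0.61). The sequences of the most and the least like miR are shown with the seed in capitals, since neither shares the seed of rno-miR-21.
rno-miR-20a-5p: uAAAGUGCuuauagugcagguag
rno-miR-23b-3p: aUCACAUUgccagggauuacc
These correlations are a description over 10 group means that share the arrays and the scaling, with no test.

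Other miRs with inducible transcription were taken as a list of 10 from textbook knowledge, of which 9 were on the array and 5 passed the detection filter. By the call rule above, 0 of the 5 were called at any time (1, 1, 3, 4 and 3 of them had an unadjusted p under 0.05, in order of time). The share of all tested miRs called was 6.92% at 0 h, 5.03% at 2 h, 18.2% at 24 h, 13.8% at 48 h and 18.2% at 7d. Without the fold threshold, 3 of the 5 passed as higher in IR at 24 h, 2 as higher and 2 as lower at 48 h, and 1 as higher and 2 as lower at 7d. Among all tested miRs, 24.5% passed as higher and 35.8% as lower at 24 h, 19.5% as higher and 35.2% as lower at 48 h, and 20.1% and 39.6% at 7d. The median difference of the 5 was 0.43 at 24 h, 0.16 at 48 h and 0.05 at 7d, beside -0.13, -0.15 and -0.15 over all tested miRs.

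rno-miR-146b, a miR induced by NF-kB and STAT signaling that damps Toll-like receptor signals, had the largest differences of the 5 at 24 h and 48 h. Its mean level at 24 h was 6.20 ± 0.18 on the IR arrays against 5.37 ± 0.19 on the sham control arrays (SD, n = 6), a difference of 0.83 (limma adjusted p = 2.16e-07) with all 6 IR arrays above all sham control arrays. The difference was 0.80 at 48 h (limma adjusted p = 8.36e-07) and 0.50 at 7d (limma adjusted p = 0.000399), and it was not raised at 0 h (0.00) or 2 h (-0.26). Under normexp background correction it was called at 24 h, 48 h and 7d (1.08, 1.11 and 1.35). Scaled to the hur controls, it was 0.03 at 24 h (limma adjusted p = 0.922), 0.60 at 48 h (limma adjusted p = 0.0126) and -0.38 at 7d (limma adjusted p = 0.0732). At 7d the percentile over all miRs gave 0.30 (limma adjusted p = 0.0785) and the authors' table gave 0.25 (limma adjusted p = 0.14). Without normalization between arrays the differences were -1.32, -0.40 and -2.08.

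rno-miR-34a, a target of p53, had differences of 0.43 at 24 h (limma adjusted p = 1.5e-05) and 0.30 at 48 h (limma adjusted p = 0.00126), and of 0.05 at 7d (limma adjusted p = 0.613). Scaled to the hur controls, its difference was -0.38 at 24 h and 0.10 at 48 h (limma adjusted p = 0.565). In the authors' table it was 0.07 at 24 h (limma adjusted p = 0.49) and 0.17 at 48 h (limma adjusted p = 0.125). Normexp background correction gave 0.77 and 0.70 at these times. rno-miR-212, which is induced by neuronal activity through CREB, had a difference of 0.53 at 24 h (limma adjusted p = 0.0126), which was -0.27 when scaled to the hur controls. Its neighbor in the genome, rno-miR-132, was lower in IR at 48 h by -0.29 (limma adjusted p = 0.0204). At 7d rno-miR-132 differed by -0.73 (limma adjusted p = 1.67e-07) and was detected on 2 of 6 IR arrays against 6 of 6 in sham control. Under normexp background correction both differences were positive (0.71 and 0.98). rno-miR-210, the miR most closely tied to hypoxia and HIF, differed by 0.11 at 24 h (limma adjusted p = 0.465), -0.33 at 48 h (0.0255) and -0.30 at 7d (0.0374). Scaled to the hur controls, it differed by -0.70 at 24 h (limma adjusted p = 2.85e-05) and was called at 7d (-1.19), whereas normexp gave -0.06 at 7d (limma adjusted p = 0.627).

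The other 4 inducible miRs on the array did not pass the detection filter. rno-miR-146a was detected on 1 of the 60 arrays, rno-miR-222 on 2, rno-miR-221 on 7 and rno-miR-31 on 25. At 24 h none of the 4 was detected on an IR array, so they have only an upper limit there, and no difference is given.

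**Figure D5:**
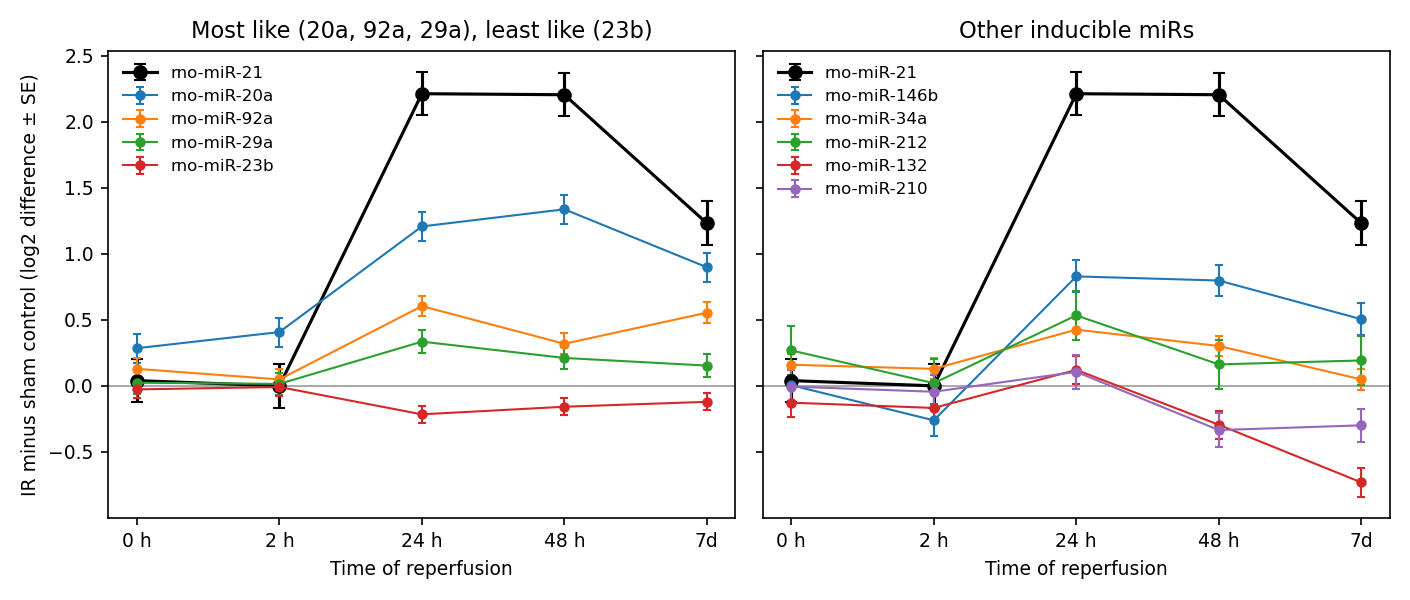
Difference in log2 signal, IR minus sham control, with its standard error against time for rno-miR-21 (black) and, left, rno-miR-20a, rno-miR-92a, rno-miR-29a and rno-miR-23b and, right, the 5 inducible miRs that were tested. The curve of rno-miR-21 reaches 2.21 at 24 h, that of rno-miR-20a 1.21 and that of rno-miR-146b 0.83.

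Values of markers of other cells are given beside those of rno-miR-21. The summed scaled signal of the 4 leukocyte miRs on the array (miR-223, miR-142-3p, miR-142-5p and miR-150) was 37.6 to 116 units in IR and 10.7 to 31.7 in sham control at 24 h, and 34.5 to 90.9 and 16.9 to 32.1 at 7d. Of these 4 miRs, 3 were detected on no IR array at 24 h and at 7d, and both strands of miR-142 were detected on none of the 60 arrays. The remaining one, rno-miR-223, was detected on 1 of 6 IR arrays at 24 h and on 2 of 6 at 7d. The IR sums were thus mostly signals below detection. Scaling raised such signals more on the dimmer IR arrays, so no difference is read from these sums. The 1 leukocyte miR that passed the detection filter, rno-miR-150, did so only through sham control at 7d, so its differences are given with no test. They were -0.37 at 24 h, -0.73 at 48 h and -0.96 at 7d. It was detected on 0, 1 and 0 of 6 IR arrays at these times, against 2, 4 and 6 of 6 in sham control. The sizes of its differences therefore rest mostly on IR signals below detection. The 5 glial miRs summed to 2472 to 2820 units in IR and 2686 to 3352 in sham control at 24 h. Of these 5, 2 passed the adjusted p as lower and 0 as higher at 24 h, and 1 passed each way at 48 h and at 7d. Over all tested miRs, 24.5%, 19.5% and 20.1% passed as higher at these times. The 6 neuronal miRs summed to 12861 to 14511 units in IR and 11884 to 16476 in sham control at 24 h. Of these 6 neuronal miRs, 4 passed the adjusted p as lower in IR at each of 24 h and 48 h, and 3 did so at 7d. Over all tested miRs, 35.8% passed as lower at 24 h, 35.2% at 48 h and 39.6% at 7d. Of the 6 neuronal miRs, rno-miR-138 passed the detection filter only through sham control at 7d. Its differences of -1.18 at 24 h and -1.64 at 7d are therefore given with no call. It remains part of the counts of lower neuronal miRs at all 3 times and of their median difference. It was detected on 0 of 6 IR arrays at both times, against 4 of 6 in sham control at 24 h and 6 of 6 at 7d. The sizes of its differences therefore rest on IR signals below detection. The median difference of the 6 neuronal miRs was -0.34, -0.42 and -0.35 at 24 h, 48 h and 7d, beside -0.13, -0.15 and -0.15 over all tested miRs. The 4 muscle miRs summed to 136 to 279 units in IR and 44.4 to 73.4 in sham control at 24 h. At 2 h, where rno-miR-21 did not stand apart, they summed to 74.96 to 547 and 26.8 to 74.5. Only rno-miR-206 was tested, and it alone of the 4 was detected on an IR array at 24 h. Of the others, rno-miR-133a was detected on none of the 60 arrays, rno-miR-133b on no IR array and rno-miR-1 on 4 of 6 IR arrays at 2 h. No change of the muscle miRs as a set is read from these sums. The red cell miR-144 was detected on no array and miR-451 on 1. The part of these cells in the level of rno-miR-21 was not tested.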

How the data were processed

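Cy3-labeled retinal RNA of 60 rats was hybridized to 1-color Agilent rat miR arrays, 6 rats in each of 10 groups. Per the file headers, the authors extracted the intensity of each spot and the total intensity per miR with Agilent Feature Extraction 9.5.3.1, which subtracts background. The deposited intensities were not normalized between arrays. The authors also deposited a log2 table of 219 features scaled to the 75% quantile in GeneSpring, used here as an alternative.

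Each array was scaled by the 75th percentile of the 57 miRs that every array detected, values under 6.20 units were set to that floor, and log2 was taken. One limma fit (version 3.58.1, R 4.3.3) held all 60 arrays and the 159 miRs that passed the detection filter (detection on every array of some group), with Benjamini-Hochberg adjustment per comparison. The fit was checked on simulated data. Exact permutation tests used scipy 1.17.1. No 2 arrays were identical, and each array came from another rat. The number of arrays limits the precision.

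The miR and the lists were chosen with earlier results of these data known. The named miRs are rno-miR-21 and rno-miR-21*, the inducible miRs, the 5 most and the 3 least like miRs, and up to 3 miRs per time point with a larger rise. The cell type markers come from lists of textbook markers, and rno-miR-129*, rno-miR-138 and rno-miR-150 were named after their values were seen. The alternatives changed the background correction, the scaling, the floor, the detection filter, the arrays fitted, and the replicate, slide and scan blocks, and arrays were omitted one at a time.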

Additional observations from a re-analysis of the deposited data

Results flagged for a closer look

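Of the 30 sets of 6 arrays examined (10 groups, for the total signal and for each probe of rno-miR-21), 3 held an array whose gap to the nearest array was unusually large for the range of its group. Chance flags about 1 in 20 such sets, and the total signal and the probes are not independent. In sham control at 0 h, replicate 1 was low in the total signal (7.50, nearest array 8.11) and in the longer probe (8.07, nearest array 8.52). Its unscaled signal was 360 units at a log2 75th percentile of 10.66, while the other 5 arrays ranged from 309 to 656 units. In sham control at 48 h, replicate 3 was high in the shorter probe (6.16, nearest array 5.77), but not in the total signal.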

How the results depend on the processing

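The difference of rno-miR-21 between IR and sham control kept its sign at 24 h and 48 h under every alternative run and at 7d under every one but the lack of normalization between arrays, where it was -1.35. At 0 h and 2 h it lay near 0 and took either sign. The values that moved by more than the replicate SD were as follows, and the cause was not tested. Without normalization between arrays the difference was -1.02 at 0 h, 0.060 at 24 h and 1.01 at 48 h. With normexp it was 0.28 at 0 h, 1.59 at 24 h, 1.53 at 48 h and 1.09 at 7d. With the 75th percentile over all miRs it was -0.28 at 0 h, 1.90 at 24 h and 1.03 at 7d. Quantile normalization gave -0.20 at 0 h and -0.12 at 2 h. With the slide as a fixed block it was 0.36, 0.32, 2.63 and 1.52 at 0 h, 2 h, 24 h and 7d. That setting links IR to sham control only through the 2 slides that held both treatments. With array brightness as a covariate the difference was 1.98 at 24 h and 0.96 at 7d. In the authors' table it was -0.27, 1.86 and 0.98 at 0 h, 24 h and 7d. Scaled to the hur controls, which was added once the data had been seen, it was -0.30, 1.41 and 0.34 at the same times. Within scan 1 it was 2.00 at 24 h and 1.37 at 7d, and within scan 2 it was 1.07 at 7d. With arrays omitted one at a time, the range was -0.069 to 0.071 at 0 h and -0.025 to 0.024 at 2 h. It was 2.16 to 2.26 at 24 h, 2.06 to 2.49 at 48 h, and 1.19 to 1.26 at 7d.

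Between sham control groups, no alternative brought the tested differences of rno-miR-21 at 2 h and 48 h past the limma threshold, with adjusted p from 0.238 to 1. The difference at 2 h against 0 h reversed to -0.060 with the percentile over all miRs, -0.059 with quantile normalization, -0.56 without normalization, -0.020 with array brightness, -0.082 in the authors' table and -0.19 with the hur controls. With arrays omitted one at a time, the range was -0.064 to 0.075 at 2 h and 0.35 to 0.49 at 24 h. It was 0.12 to 0.28 at 48 h and 0.20 to 0.34 at 7d.

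The count of all miRs called by limma, in order of time, was 11, 8, 29, 22 and 29. It was 7, 4, 9, 8 and 8 with the mean over probes, 41, 2, 63, 63 and 95 with normexp, 79, 4, 136, 119 and 149 without normalization, and 2, 2, 6, 4 and 4 with only the miRs detected on all arrays, where fewer were tested. It was 5 at 0 h with only the 12 arrays compared, 7 at 0 h and 4 at 2 h with the slide as a fixed block, and 13 at 2 h and 45 at 24 h with no detection filter. It was 46 at 24 h with quantile normalization, 34 at 48 h with a floor of 1 unit, and 14 at 24 h and 5 at 7d with array brightness. It was 21, 45, 35 and 48 at 0 h, 24 h, 48 h and 7d in the authors' table, and 73 at 24 h and 89 at 7d with the hur controls. Leaving out each array in turn gave 9 to 16, 6 to 9, 25 to 34, 18 to 28 and 27 to 35. The count of inducible miRs was 0 throughout, except for 3 at 0 h, 5 at 24 h, 3 at 48 h and 5 at 7d without normalization, 1 at 24 h, 48 h and 7d with normexp, 1 at 24 h and 48 h with no detection filter, 1 at 7d with quantile normalization and 2 at 7d with the hur controls. Leaving out an array kept it at 0.

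For rno-miR-20a, r was 0.87 with normexp, 0.97 with quantile normalization, 0.64 without normalization and 0.905 with the hur controls, and it stayed the most like miR in all 6 scalings tried. Replicate numbers are shared by all groups, but the numbers were not taken as pairs, since deviations of same-numbered IR and sham control arrays correlated at r over 0.1 in 15 of 30 pairs and not in all, with the own number the best match for 7 of 30 arrays. With the replicate block, the difference of rno-miR-21 stayed at 0.04, -0.00, 2.21, 2.20 and 1.23, and limma called 10, 8, 29, 21 and 29 miRs. No value within slides could be had, and rno-miR-21*, never detected, has no alternative.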
